A study of Mus musculus with 14 samples.

Results

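The osteoclast is the cell that dissolves bone, and 7 of its genes were followed through 14 RNA sequencing libraries of mouse macrophages with and without interleukin 4 (IL4). The 7 genes, of 9474 measured, were Tnfrsf11a, Nfatc1, Itgb3, Atp6v0d2, Car2, Ctsk and Acp5. They were chosen by name for their roles in bone resorption, with earlier results of these data known. The study asked how IL4 changes macrophages, alone and in the setting of acute myeloid leukemia (AML). All mice were C57BL/6J. In the culture experiment, monocytes purified from bone marrow were kept for 7 days in RPMI medium with 10% fetal bovine serum and CSF1, the growth factor that drives monocytes to become macrophages. Control cultures received CSF1 alone and the others also received 20 ng/mL murine IL4, giving 4 libraries in each group. CSF1 is put at 25 ng/mL in the growth protocol and at 20 ng/mL in the design text. In the marrow experiment, F4/80+ cells were sorted from bone marrow 12 days after transplant of AML cells carrying an IL4 cDNA or an empty vector, giving 3 libraries in each group. In the marrow IL4 group the leukemic cells are thus the introduced source of IL4, and both marrow groups carried leukemia. Separate cultures or mice are not stated for the libraries of a group, and every p-value below covers only their spread, which may be technical.

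Osteoclasts arise by fusion of cells of the monocyte lineage. CSF1 keeps the precursors alive, and RANKL, a surface and soluble ligand made by bone-lining and stromal cells, binds its receptor RANK (the product of Tnfrsf11a) and through TRAF6, NF-kB and AP-1 switches on Nfatc1, the master transcription factor of the osteoclast. NFATc1 in turn drives the genes of attachment, fusion, acid secretion and collagen digestion, and IL4 acting through STAT6 is known to block this program. No RANKL was among the factors named for the cultures.

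The deposited values were log2 values from which whole reads could be recovered, and levels are given here as RPM, recovered reads scaled to a library total of 1000000; these are on the same scale in both experiments, whose tables were solved together. The totals were shallow, from 512869 to 802054 reads, so that 0 reads allowed a level of up to 3.74 to 5.85 RPM, for counting error only. The 2 culture libraries numbered 4 stood apart: the chi-square per degree of freedom of their reads against the other libraries of their group was 4.6 to 6.7, against 1.41 to 2.2 among the other culture libraries. The tests that follow are limma on the deposited log2 values within each experiment, with p-values adjusted over 9474 genes and a threshold of 0.05. RNA of the cultures carried macrophage markers throughout: the summed level of 7 markers, among them Csf1r and Emr1 (the gene of F4/80), was 8590 to 9800 RPM in controls and 5540 to 6110 with IL4. In the sorted marrow cells the same sum was only 596 to 787 in controls and 386 to 932 with IL4. These marrow sums hid opposite moves. Of 10 measured macrophage markers 2 rose with IL4 in marrow and 5 fell, beside 6.7% and 11.5% of all genes. Mrc1 (log2 change 3.43, mean level 16.6 RPM in controls and 208 with IL4) and Mertk (3.90) rose. Csf1r (-1.17), Cd68 (-1.02), Fcgr1 (-2.70), Lyz2 (-2.28) and Mpeg1 (-2.37) fell. The summed level of 6 neutrophil markers was 62700 to 72900 RPM in marrow controls and 47300 to 59000 with IL4, against 229 to 536 in all culture libraries. Markers of progenitors and blasts (5 genes) summed to 1370 to 1460 RPM in culture controls and 229 to 338 with IL4, and to 273 to 407 in marrow controls and 442 to 477 with IL4. The culture sum was mostly Cd93, with a mean of 1330 RPM in controls and 232 with IL4. In marrow the 5 genes did not move together. Mean levels went from 43 to 182 RPM for Gata2, 54.3 to 119 for Myc and 38.2 to 42.1 for Cd34. They went from 56.1 to 21.6 for Sox4 and from 163 to 93.8 for Cd93. This sum thus does not measure the share of progenitors or blasts. In the marrow libraries the 6 neutrophil markers thus summed above the 7 macrophage markers. The macrophage sum lacked Lyz2, Itgam and Mpeg1, measured markers whose whole reads could not be recovered, so the 2 sums do not measure the shares of the cell types. The part of neutrophil markers in the marrow results was not tested. In these bulk samples fewer cells of a type and less RNA per cell cannot be told apart.

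The stretch just before the transcription start was at hand for 3 of the 7 genes (RefSeq, mouse GRCm38.p6), and it is shown for 2 genes that rose together in culture, Ctsk and Acp5, and for the receptor gene Tnfrsf11a, which fell. Of the 3 RefSeq starts of Acp5 the third is shown, the one whose stretch held any match. Itgb3, Nfatc1, Atp6v0d2 and Car2 had no entry. Capitals mark matches on either strand to short motifs of factors of this pathway: GAGGAA for PU.1, the factor of the myeloid lineage, TGGAAA for NFAT, CACGTG or CACATG for MITF, TGANTCA for AP-1, and for STAT6 its palindrome of TTC and GAA with 4 bases between. The sequences read 5′ to 3′ on the strand of the gene, at chr3:95498960-95499209 (plus strand) for Ctsk, chr9:22130609-22130848 (minus strand) for Acp5 and chr1:105780473-105780717 (plus strand) for Tnfrsf11a.
Ctsk: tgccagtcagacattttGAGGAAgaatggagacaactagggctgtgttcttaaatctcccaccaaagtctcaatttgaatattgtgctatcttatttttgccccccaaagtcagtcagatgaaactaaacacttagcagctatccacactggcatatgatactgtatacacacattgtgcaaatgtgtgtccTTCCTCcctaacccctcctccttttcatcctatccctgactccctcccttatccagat
Acp5: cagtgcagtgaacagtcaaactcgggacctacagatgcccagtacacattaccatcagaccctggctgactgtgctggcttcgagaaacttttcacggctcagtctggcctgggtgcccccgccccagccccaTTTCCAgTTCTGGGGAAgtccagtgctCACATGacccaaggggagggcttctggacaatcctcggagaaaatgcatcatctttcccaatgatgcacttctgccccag
Tnfrsf11a: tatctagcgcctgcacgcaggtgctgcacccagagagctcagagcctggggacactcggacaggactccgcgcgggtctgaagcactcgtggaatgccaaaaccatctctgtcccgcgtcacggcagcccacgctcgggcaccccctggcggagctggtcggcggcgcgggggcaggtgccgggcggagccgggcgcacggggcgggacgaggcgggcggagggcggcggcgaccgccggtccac
The Ctsk stretch held 2 PU.1 matches, bases 233 to 228 and 58 to 53 before the start. In Acp5 an NFAT match (117 to 112), a STAT6 match (110 to 101) and an MITF match (90 to 85) followed each other without overlap. The Tnfrsf11a stretch and those of the other 2 Acp5 starts held none of these letters. The printed stretches of Acp5 and Tnfrsf11a had 240 and 245 bases. Left out were the 10 and 5 bases next to the start, at an annotated untranslated region. Over 32851 RefSeq promoter stretches of 250 bases, 23.3% held the PU.1 motif, 18.6% the NFAT motif, 17.6% an MITF motif, 6.75% the AP-1 motif and 5.85% the STAT6 motif. These matches describe the letters only, and binding was not measured.

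In culture all 7 genes changed with IL4, and not in one direction. The genes of attachment, acid secretion and matrix digestion (Itgb3, Atp6v0d2, Car2, Ctsk and Acp5) rose by 9.04- to 23.1-fold in the fitted values (that of Car2 resting on 2 control reads), whereas the genes of the RANKL receptor and of the master transcription factor fell by 2.52-fold (Tnfrsf11a) and 2.98-fold (Nfatc1). Of all genes tested in culture 40.5% were called, 7.96% higher and 32.6% lower, so that rises were few and falls common. Because the 7 genes were chosen with earlier results of these data known, their 5 rises beside these shares are a description only. The 5 risers held places 26 (Ctsk), 29 (Acp5), 30 (Itgb3), 33 (Car2) and 62 (Atp6v0d2) among the 9474 genes ordered from the largest rise. Nfatc1 was 703rd and Tnfrsf11a 925th among the falls. In all 7 the culture groups did not overlap, which held for 37.7% of all genes (7.49% with IL4 higher, 30.2% lower). In marrow only 3 of the 7 changed: Itgb3 and Atp6v0d2 rose and Car2 fell, where 18.2% of all genes were called, 6.7% higher and 11.5% lower. The marrow groups of these 3 did not overlap, which held for 37.6% of all genes (15.5% higher, 22.1% lower), so that absence of overlap was common there. Without both culture libraries numbered 4, the culture count was again 5 higher and 2 lower, beside 833 higher and 3276 lower of all 9474 genes.

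**Figure D1:**
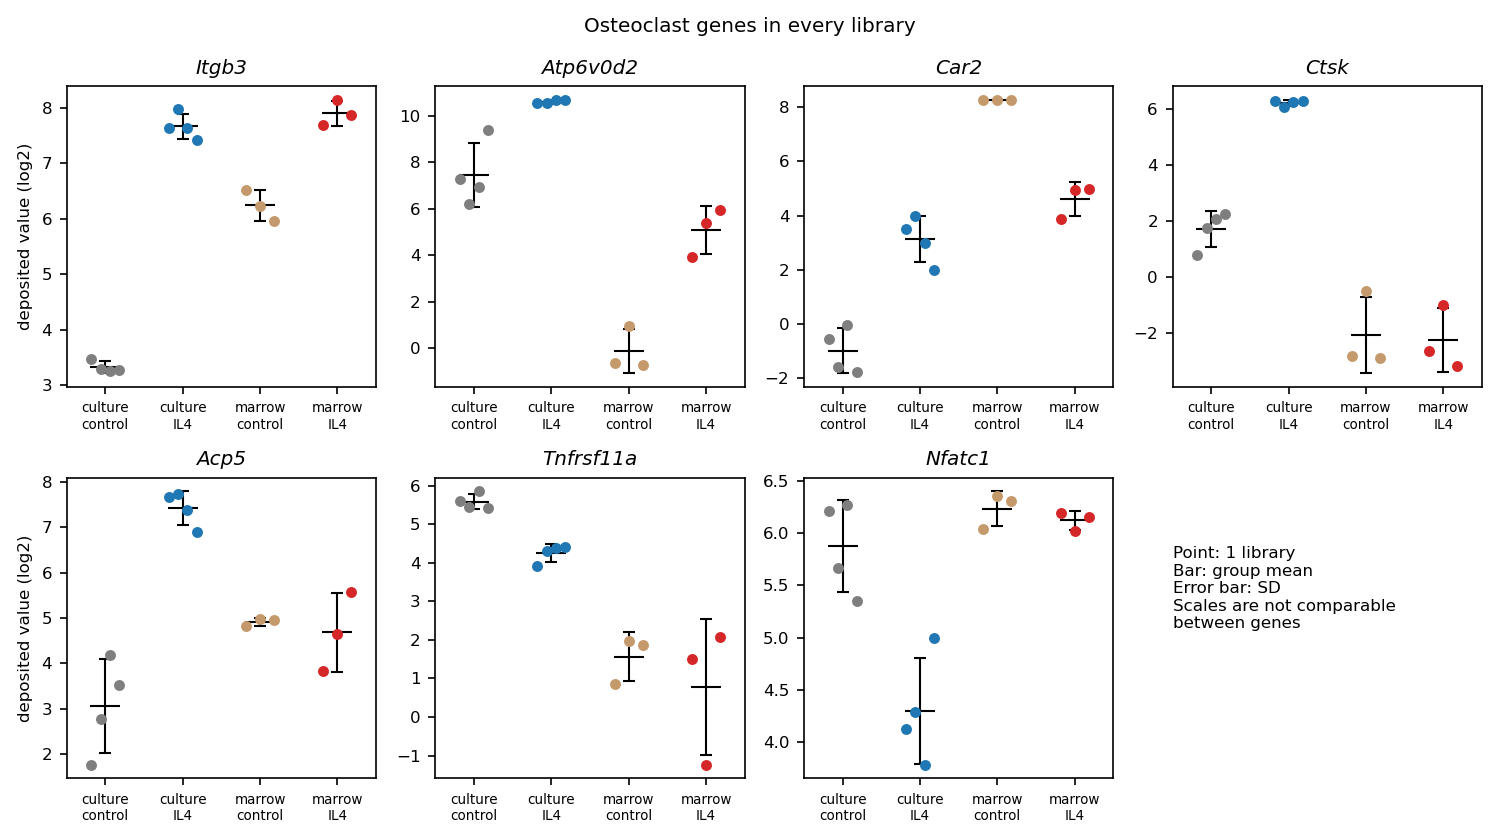
Deposited log2 value (vertical axis, a separate scale for each gene) of each of the 7 osteoclast genes in each of 14 libraries, by group; points are libraries, bars the group mean and error bars the SD over 4 (culture) or 3 (marrow) libraries. In culture no IL4 library overlaps a control library for any of the 7 genes, and in marrow this holds for Itgb3, Atp6v0d2 and Car2.

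Tnfrsf11a, the receptor through which RANKL starts osteoclast formation (chromosome 1, 105780718 to 105847981 of mm10, 5985 bases of exon), was highest in the control cultures. Its level in culture controls 1 to 4 was 117, 104, 138 and 103 RPM, and with IL4 it was 35.2, 47.1, 49.2 and 50.1. Every IL4 library lay below every control. The log2 fold change was -1.33 ± 0.17 (SE, n = 4 per group, limma adjusted p = 0.000237). In marrow the gene was near the limit of detection, with 2, 5 and 5 reads in controls 1 to 3 and 3, 0 and 7 reads with IL4, and the groups overlapped. The marrow difference was -0.79 ± 0.79 (limma adjusted p = 0.543), with a 95% interval from -2.57 to 0.996, which holds the size of the culture fall as well as no change. The ratio of summed marrow reads, 0.855, had a counting interval of 0.331 to 2.16. The difference of the culture and marrow responses of Tnfrsf11a did not pass the threshold (-0.55 ± 0.80, limma interaction, adjusted p = 0.663). That call rested on a single library: without marrow IL4 library 2, which had 0 reads, the difference was -1.55 (limma adjusted p = 0.0183), and without marrow IL4 library 3 it was 0.10.

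Nfatc1, the transcription factor that RANK signalling induces (chromosome 18, 80606205 to 80713071, 7469 bases of exon), was read at similar levels in 3 of the 4 groups. Culture controls held 142, 95, 145 and 77.9 RPM, and culture IL4 libraries 32.5, 36.4, 25.4 and 60.2. The groups did not overlap, and libraries numbered 4 were the lowest control and the highest IL4 library. The fall was -1.57 ± 0.28 on the log2 scale (limma adjusted p = 0.00192). In marrow, controls held 118, 147 and 142 RPM and IL4 libraries 133, 117 and 129. These groups overlapped, with a change of -0.11 ± 0.15 (limma adjusted p = 0.653) and a 95% interval from -0.44 to 0.22, so that a fall as large as in culture lay outside it. The response of Nfatc1 differed between the experiments (-1.46 ± 0.37, limma interaction, adjusted p = 0.0112).

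Both falls were larger than the shift of the whole culture table, whose median gene fell by 0.36 on the log2 scale (0.06 in marrow). With every library centred on its median the values were -0.97 for Tnfrsf11a and -1.21 for Nfatc1, and both were still called. Centring moved the split of all culture calls from 754 higher and 3084 lower to 1365 and 1205, and that of marrow from 635 and 1086 to 895 and 845.

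Itgb3 encodes the integrin beta 3 chain, which pairs with the alpha V chain to hold the osteoclast to bone and is also a chain of the platelet fibrinogen receptor (chromosome 11, 104608000 to 104670476, 5901 bases of exon). Culture controls held 15, 12.5, 12.3 and 12.7 RPM, from 7 to 12 reads, and culture IL4 libraries 274, 346, 271 and 236. All IL4 libraries were far above all controls, and the spread within each group was small. The log2 fold change was 4.34 ± 0.15 (limma adjusted p = 3.09e-08), or 20.2-fold. The control side rested on only 34 summed reads, so this SE may understate the counting error. The ratio of summed reads, scaled for library totals, was 21.4, with a counting interval of 15.2 to 31.2. In marrow the controls held 120, 98.2 and 81.2 RPM and the IL4 libraries 273, 372 and 307. These groups did not overlap either, and the rise was 1.66 ± 0.18 (limma adjusted p = 0.000455), or 3.16-fold. The IL4 groups of both experiments overlapped in level, while marrow controls lay above culture controls. The responses differed by 2.68 ± 0.23 (limma interaction, adjusted p = 5.41e-06). Of all genes 1.75% (166 genes) rose in both experiments, Itgb3 and Atp6v0d2 among them.

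Itgav, the gene of the alpha V partner, did not follow. Its reads went from 152 to 207 per culture control library to 76 to 96 with IL4, a log2 change of -1.17 ± 0.12 (limma adjusted p = 9.48e-05), and in marrow the change was -0.74 ± 0.23 (limma adjusted p = 0.0549). Of the platelet and megakaryocyte genes measured beside Itgb3, Pf4 went from 149 to 362 reads in control cultures down to 16 to 44 in IL4 cultures, and Vwf from 11 to 51 up to 128 to 230. In marrow the summed level of Pf4 and Vwf was 4.93 to 10.7 RPM in controls and 1.95 to 15.5 with IL4, while Itgb3 alone was at 81.2 to 372. In culture that sum was 318 to 615 RPM in controls and 241 to 369 with IL4, and the part of platelet genes in the rise of Itgb3 was not tested.

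Atp6v0d2 encodes the d2 subunit of the vacuolar proton pump, known for its part in osteoclast fusion and acid secretion (chromosome 4, 19876841 to 19922605, minus strand, 2716 bases of exon). Culture controls held 213, 96.8, 163 and 909 RPM, and culture IL4 libraries 2020, 2020, 2230 and 2240. The IL4 libraries were tightly grouped and all above the controls, but control library 4 stood several fold above the other controls. The log2 fold change was 3.18 ± 0.53 (limma adjusted p = 0.00131), or 9.04-fold, and without control library 4 it was 3.82 ± 0.22 (limma adjusted p = 3.69e-06), or 14.1-fold. In marrow the gene had 0, 1 and 0 reads in controls and 10, 27 and 61 with IL4, the latter at 18.7, 52.6 and 78.6 RPM. The groups did not overlap, and the limma value was 5.23 ± 0.59 (adjusted p = 0.000564). A fold from so few control reads depends on the offset of 0.5 reads in the deposited values; the ratio of summed reads, scaled for library totals, was 101, with a 95% counting interval of 17.6 to 4010. Atp6v0d2 was the 10th largest rise in marrow, where Itgb3 was the 167th. The level with IL4 in marrow was below that of every culture library, controls included. The difference of the responses was -2.06 ± 0.89, with an interval from -3.96 to -0.15, and did not pass the threshold (limma interaction, adjusted p = 0.11).

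Atp6v0d1, the gene of the widespread d1 form of this subunit, had log2 changes of -0.31 ± 0.13 in culture (limma adjusted p = 0.0863) and 0.31 ± 0.17 in marrow (limma adjusted p = 0.257). Over all genes 7.96% rose and 32.6% fell in culture, and 6.7% rose and 11.5% fell in marrow. Of 17 other pump subunit and accessory genes, 6 rose and 0 fell in culture, with a median of 0.22, and 3 rose and 0 fell in marrow, with a median of 0.06. In culture the smallest p-values were those of Atp6v1b2 (1.21 ± 0.17, limma adjusted p = 0.000559) and Atp6v0a1 (1.48 ± 0.23, limma adjusted p = 0.000818). In marrow they were those of Atp6ap2 (0.84 ± 0.17, limma adjusted p = 0.00826) and Atp6v1a (0.61 ± 0.14, limma adjusted p = 0.0159). All 4 values were smaller than the 3.18 and 5.23 of Atp6v0d2. With libraries centred on the median, 12 of the 17 rose and 0 fell in culture, and 3 rose and 0 fell in marrow. The same centring called 1365 of all 9474 genes higher and 1205 lower in culture, and 895 and 845 in marrow. Tcirg1, whose product is the a3 subunit of the osteoclast pump, had 0.18 ± 0.15 in culture (limma adjusted p = 0.355, but 0.54 and 0.038 with libraries centred) and -0.04 ± 0.14 in marrow (limma adjusted p = 0.891).

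Car2 encodes carbonic anhydrase 2, which supplies the protons for the pump and is also abundant in red cell precursors (chromosome 3, 14886273 to 14900770, 2422 bases of exon). Culture controls held only 1, 0, 1 and 0 reads, and culture IL4 libraries 22, 31, 13 and 6. All IL4 libraries exceeded the controls at a low level, 10.0 to 41.7 RPM. The limma value was 4.11 ± 0.52 (adjusted p = 0.00027), and the ratio of summed reads, scaled for library totals, was 34, with a counting interval of 9.08 to 286. In marrow the order was the opposite: controls held 785, 791 and 797 RPM and IL4 libraries 37.3, 78.0 and 81.2. The controls were nearly equal and all far above the IL4 libraries, with a log2 change of -3.66 ± 0.27 (limma adjusted p = 7.97e-05), a 12.7-fold fall and the 19th largest in marrow. The responses differed by 7.77 ± 0.67 (limma interaction, adjusted p = 5e-06). Car2 was 1 of 232 genes (2.45% of all) called in both experiments with opposite signs.

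The red cell marker measured beside Car2 was Tfrc, the transferrin receptor, which dividing cells and macrophages also carry. It moved with Car2 in both experiments: control cultures held 42 to 102 Tfrc reads and IL4 cultures 315 to 771, and marrow controls held 433 to 499 against 75 to 149 in marrow IL4 libraries. The log2 changes were 2.41 in culture (limma adjusted p = 0.000754) and -2.15 in marrow (limma adjusted p = 4.59e-05). Only 2 of 21 red cell markers, Car2 and Tfrc, could be read, and their part in the change of Car2 was not tested. Car13, the only other carbonic anhydrase in the tables, had -0.50 on the log2 scale in culture, which was not called, and fell in marrow (-2.66 ± 0.71, limma adjusted p = 0.0318) on 9, 3 and 9 reads in controls and 0, 0 and 4 with IL4.

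Ctsk encodes cathepsin K, the protease that cuts bone collagen in the acid pit under the osteoclast (chromosome 3, 95499256 to 95509362, 1512 bases of exon). Culture controls held 9.97, 19.7, 24.5 and 28.6 RPM, from 8 to 18 reads, and culture IL4 libraries 484, 412, 467 and 483. The IL4 libraries were close to each other and all above the controls. The rise was 4.53 ± 0.29 (limma adjusted p = 4.45e-06), or 23.1-fold. In marrow Ctsk had 0, 2 and 0 reads in controls and 0, 1 and 0 with IL4. No difference was detectable at this depth: the limma value was -0.19 ± 0.98 (adjusted p = 0.92), with an interval from -2.39 to 2.01. The ratio of summed marrow reads, 0.513, had a wider counting interval of 0.0087 to 9.86. The responses differed by 4.72 ± 0.85 (limma interaction, adjusted p = 0.00134). This size also rests on the few marrow reads, and was 3.93 without marrow control library 2 and 5.36 without marrow IL4 library 2, the libraries that held them. Stromal cells also make cathepsin K; 5 stromal and osteoblast markers summed to 818 to 1920 RPM in culture controls and to 96.2 to 223 with IL4. Of these 5, 4 fell and Runx2 rose (0.64 ± 0.19, limma adjusted p = 0.0231), and their part in the change of Ctsk was not tested.

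Acp5 encodes tartrate-resistant acid phosphatase, the enzyme stained to count osteoclasts, also made by activated macrophages (chromosome 9, 22126727 to 22135711, minus strand, 2030 bases of exon, some shared with 6530413G14Rik, which is not in the tables). Culture controls held 6.23, 12.5, 35.0 and 22.2 RPM, and culture IL4 libraries 401, 420, 329 and 237. The controls varied several fold but stayed below every IL4 library. The rise was 4.36 ± 0.43 (limma adjusted p = 6.25e-05), or 20.5-fold. In marrow the controls were close together at 52.5, 58.9 and 58.2 RPM, and the IL4 libraries spread around them at 26.1, 46.8 and 90.2. These groups overlapped, with a change of -0.23 ± 0.37 (limma adjusted p = 0.714) and an interval from -1.07 to 0.60, so that a rise of the culture size lay outside it. The responses differed by 4.59 ± 0.67 (limma interaction, adjusted p = 0.000256). With 106 reads summed over marrow controls and 108 over marrow IL4 libraries, Acp5 was read far above the level of Ctsk.

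**Figure D2:**
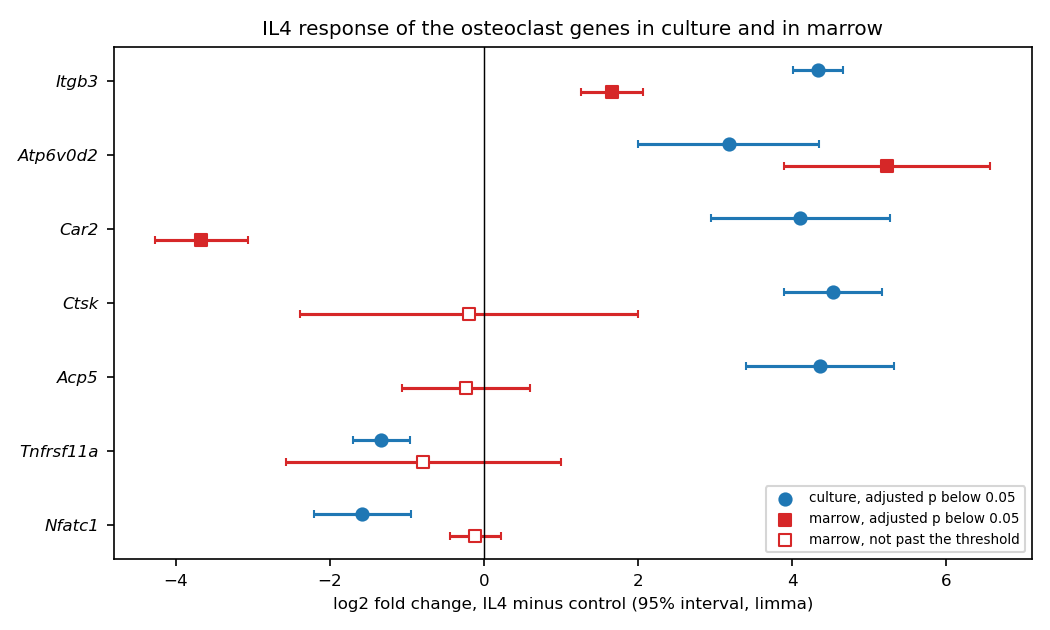
Log2 fold change, IL4 minus control (horizontal axis), of the 7 genes in culture (blue circles, n = 4 per group) and marrow (red squares, n = 3 per group), with limma's 95% interval; open symbols did not pass the adjusted p threshold. Car2 lies at 4.11 in culture and -3.66 in marrow, and the marrow intervals of Ctsk and Tnfrsf11a are wide, on 0 to 7 reads per library.

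Of the 7 genes, 5 differed in response between the experiments (Itgb3, Car2, Ctsk, Acp5 and Nfatc1), against 23.1% of all genes (6.45% with the culture change above that of marrow, as for Itgb3, Car2, Ctsk and Acp5, and 16.6% below, as for Nfatc1). Tnfrsf11a and Atp6v0d2 did not pass. Culture and marrow libraries were not matched in cell makeup, and IL4 came from a supplement in one and from leukemic cells in the other, so that setting, makeup and dose cannot be told apart.

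Levels can be set beside each other between genes only per exon length. In RPM per kb of exon, Atp6v0d2 was the highest of the 7 in culture, with a group mean of 127 in controls and 783 with IL4, followed with IL4 by Ctsk at 305 and Acp5 at 171. The control mean rested on library 4, at 335, and was 58 without it. Itgb3 had 2.22 and 47.7. In the control cultures the second place went to Tnfrsf11a at 19.3, ahead of Nfatc1 at 15.4 and Ctsk at 13.7, and with IL4 these receptor and transcription factor genes were the lowest, at 7.59 and 5.17. In marrow controls Car2 led at 326, with Acp5 at 27.9, Nfatc1 at 18.2 and Itgb3 at 16.9 following, and Tnfrsf11a, Ctsk and Atp6v0d2 at 1.07, 0.722 and 0.201. In marrow IL4 libraries Itgb3 led at 53.8, and Car2 (27.0), Acp5 (26.8), Atp6v0d2 (18.4) and Nfatc1 (16.9) lay within a narrow range.

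**Figure D3:**
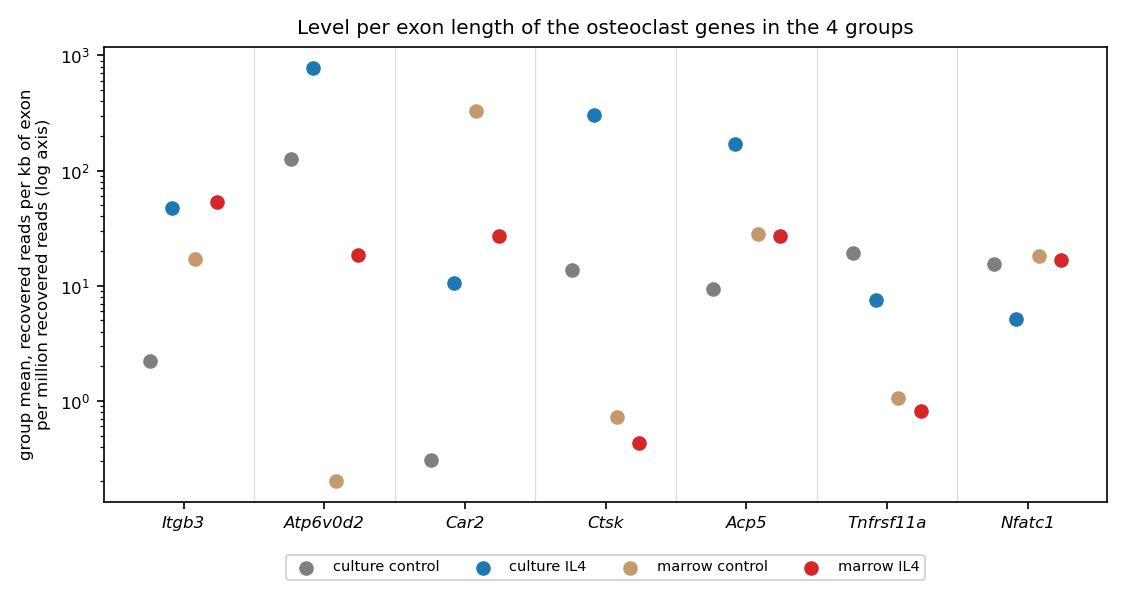
Group mean of RPM per kb of exon (vertical axis, logarithmic) for the 7 genes in the 4 groups, 1 point per group. Atp6v0d2 in IL4 cultures, at 783, is the highest point, and Atp6v0d2 in marrow controls, at 0.201, is the lowest.

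Across the 4 groups the order of levels differed by gene. Culture IL4 libraries were the highest for Ctsk, Acp5 and Atp6v0d2, and the lowest for Nfatc1. For Atp6v0d2 no neighbouring groups overlapped, from culture IL4 through culture control and marrow IL4 to marrow control. For Acp5 the lower 3 groups, marrow control, marrow IL4 and culture control, each overlapped the next. Nfatc1 overlapped among marrow control, marrow IL4 and culture control, and Car2 overlapped between marrow IL4 and culture IL4. The marrow groups of Ctsk and of Tnfrsf11a overlapped each other below both culture groups.

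The genes around the 7 were taken from 8 lists of osteoclast biology, 166 genes measured beside the 7, some in more than 1 list. These lists too were chosen with earlier results of these data known, so their counts are a description only. In culture 33 of the 166 rose and 66 fell (19.9% and 39.8%, beside 7.96% and 32.6% of all genes), with a median of -0.31 beside -0.36 over all genes. In marrow 20 rose and 25 fell (12.0% and 15.1%, beside 6.7% and 11.5% of all genes), with a median of -0.01 beside -0.06. The same shares of all genes stand behind the counts of each list that follows. With libraries centred on the median, the counts of the 166 genes were 48 higher and 32 lower in culture and 26 higher and 19 lower in marrow. The same centring called 1365 of all 9474 genes higher and 1205 lower in culture, and 895 and 845 in marrow. Centred counts of each list below are to be read beside these, not beside the shares above.

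Of 36 measured genes of RANK signalling and osteoclast transcription, 4 rose and 17 fell in culture (median -0.48), and 3 rose and 6 fell in marrow (median -0.12). The centred libraries gave 7 higher and 6 lower in culture, and 6 and 4 in marrow. Fos, the AP-1 subunit without which no osteoclasts form, fell in both, with log2 changes of -1.88 ± 0.12 in culture (limma adjusted p = 5.22e-06) and -2.49 ± 0.21 in marrow. Nfatc2, a relative that helps to start Nfatc1 expression, fell in culture (-2.12 ± 0.19, limma adjusted p = 3.86e-05) and did not pass in marrow (0.40, limma adjusted p = 0.395), and the difference between the experiments was -2.51 ± 0.34 (limma interaction, adjusted p = 0.000161). Mitf, a factor that acts with PU.1 at osteoclast genes, rose in culture by 0.98 ± 0.23 (limma adjusted p = 0.00803) and had -0.997 ± 0.31 in marrow (limma adjusted p = 0.0521), a difference of 1.98 ± 0.36 (limma interaction, adjusted p = 0.00139). Sqstm1, a scaffold of RANK signalling and of autophagy, rose in marrow by 1.60 ± 0.13 (limma adjusted p = 0.000111). Csf1r, the CSF1 receptor, fell in both, with log2 changes of -0.96 ± 0.14 in culture (limma adjusted p = 0.000544) and -1.17 ± 0.28 in marrow (limma adjusted p = 0.0193). Traf6, the adaptor of RANK, passed in neither experiment (-0.12, limma adjusted p = 0.686; -0.22, limma adjusted p = 0.522). Tnfsf11 (RANKL) and Tnfrsf11b (its decoy receptor) were not analysed here.

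Osteoclasts also need signals through ITAM adaptors and calcium. Of 20 such genes, 3 rose and 11 fell in culture (centred, 4 and 6), and 3 rose and 6 fell in marrow (centred, 5 and 4). Plcg2, the phospholipase of this route, fell in culture (-2.01 ± 0.21, limma adjusted p = 9.24e-05) and the ITAM adaptor Fcer1g (-0.97 ± 0.10, limma adjusted p = 9.48e-05). In marrow the adaptor Blnk fell (-2.84 ± 0.29) and the calcium channel Itpr1 (-1.16 ± 0.19). Blnk rose in culture by 0.39 ± 0.14 (limma adjusted p = 0.0421), and its responses differed by 3.22 ± 0.31 (limma interaction, adjusted p = 1.02e-05). Tyrobp, the second ITAM adaptor, had -0.40 ± 0.12 in culture (limma adjusted p = 0.0255), close to the shift of the whole table, and -0.04 with libraries centred (limma adjusted p = 0.87). Its receptor Trem2 had 0.02 in culture (limma adjusted p = 0.913) and fell in marrow (-1.35 ± 0.40, limma adjusted p = 0.0473), on 8 to 17 reads per control library and 2 to 7 per IL4 library; with libraries centred this fall did not pass (-1.24, limma adjusted p = 0.0614).

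**Figure D4:**
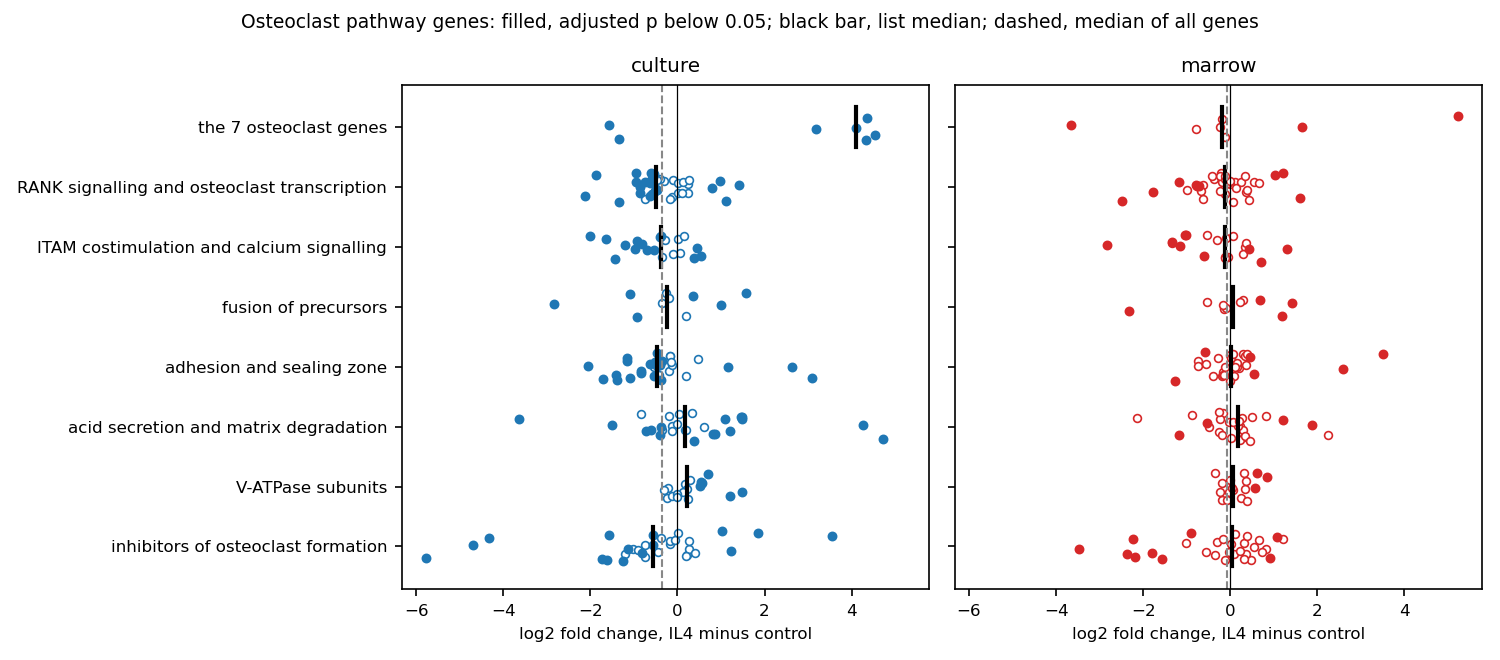
Log2 fold change, IL4 minus control (horizontal axis), of each measured gene of 7 lists and of the 7 genes themselves, in culture (left, blue) and marrow (right, red); 1 point per gene, filled where the adjusted p was below the threshold, with the list median as a black bar and the median of all genes as a dashed line. In culture the 7 genes split into 5 at the right and 2 at the left, and no V-ATPase subunit gene has a called fall in either experiment.

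Among 10 measured genes of precursor fusion, 3 rose and 3 fell in culture (centred, 4 and 2), and 3 rose and 1 fell in marrow (centred, 3 and 1). Cd9, a tetraspanin, rose in culture by 0.996 (limma adjusted p = 0.00181) and in marrow by 1.18 ± 0.17, and Sh3pxd2a, a podosome scaffold, fell in culture (-2.84 ± 0.32, limma adjusted p = 0.000123) and in marrow (-2.33). Sirpa fell in culture (-0.94 ± 0.10). Its ligand gene Cd47 rose in culture by 0.35 ± 0.12 (limma adjusted p = 0.0321) and in marrow by 0.68 ± 0.12, and the difference did not pass (limma interaction, adjusted p = 0.14). The fusion proteins of Dcstamp and Ocstamp were not analysed here.

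Of 30 adhesion and sealing zone genes, 3 rose and 18 fell in culture (centred, 5 and 9), and 4 rose and 2 fell in marrow (centred, 4 and 1). Spp1, osteopontin, a bone matrix ligand of the alpha V beta 3 integrin, moved in opposite directions: it fell in culture (-1.72 ± 0.18, limma adjusted p = 7.41e-05), from 631 to 1227 reads per control library to 176 to 367 per IL4 library, and rose in marrow by 2.59 ± 0.40 (limma adjusted p = 0.00246), from 4 to 11 reads to 27 to 46. The difference was -4.31 ± 0.42 (limma interaction, adjusted p = 1.22e-05). Cblb, a ubiquitin ligase, rose in culture by 3.10 ± 0.19 (limma adjusted p = 3.49e-06) and fell in marrow (-1.28 ± 0.30, limma adjusted p = 0.0181). The Cblb responses differed by 4.38 ± 0.32 (limma interaction, adjusted p = 1.36e-06). Myo10, an unconventional myosin, rose in marrow by 3.50 ± 0.39 (limma adjusted p = 0.000488). Src, a kinase the ruffled border needs, was not analysed here.

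Of 27 genes of acid secretion and matrix degradation, 10 rose and 6 fell in culture (centred, 14 and 1), and 2 rose and 2 fell in marrow (centred, 2 and 1). Without both culture libraries numbered 4 the culture count was 11 higher and 3 lower, beside 833 higher and 3276 lower of all 9474 genes. That fit gave 5 higher and 17 lower of the RANK list, 3 and 12 of the ITAM list, and 4 and 19 of the adhesion list. The fusion and pump lists kept their counts. The rises with the smallest p-values in culture were those of Timp2, an inhibitor of metalloproteinases (1.10 ± 0.12), and Ctsz, a lysosomal protease (1.45 ± 0.16). In marrow Ctsd (1.21 ± 0.15) and Ctsl (1.88 ± 0.27), also lysosomal proteases, rose. Clcn7, the chloride transporter that balances the charge of acid secretion, rose in culture by 0.37 ± 0.12 (limma adjusted p = 0.0256) and had -0.27 in marrow (limma adjusted p = 0.283). Its partner Ostm1 passed in neither experiment (-0.12, limma adjusted p = 0.583; 0.03, limma adjusted p = 0.95). Mmp9, the gelatinase of osteoclasts and of neutrophils, also passed in neither (0.62, limma adjusted p = 0.391; 0.24, limma adjusted p = 0.638), and had 10 to 60 reads per culture library and 614 to 1511 per marrow library, where the neutrophil markers, of which Mmp9 is 1, were abundant.

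The list drawn up for inhibitors of osteoclast formation held 31 genes. Among them Rgs10 (a called fall in both experiments), Rgs12 and Cebpa are not plain inhibitors, so the counts are not of inhibitors alone. Of the 31 genes, 4 rose and 11 fell in culture (median -0.56), and 2 rose and 7 fell in marrow (median 0.04). Centred libraries gave 5 and 8 in culture, and 4 and 7 in marrow. Without both culture libraries numbered 4 the culture rises were 6 and the falls 11, beside 833 and 3276 of all 9474 genes. Irf8, a repressor of Nfatc1, fell in culture (-0.82 ± 0.18, limma adjusted p = 0.00608, but -0.46 and 0.124 with libraries centred) and in marrow (-2.19 ± 0.28, limma adjusted p = 0.00112). Id3 fell in culture (-5.78 ± 0.44), from 152 to 255 reads to 1 to 9, and in marrow (-3.49 ± 0.48, limma adjusted p = 0.0015), from 3 to 7 reads to 0 in all 3 libraries, a marrow value that depends on the offset of 0.5 reads. Maf fell in culture (-4.33 ± 0.23). Bcl6, another repressor of osteoclast genes, passed in neither (0.22, limma adjusted p = 0.541; 0.32, limma adjusted p = 0.292). On the side of the IL4 signal, Stat6 passed in neither (-0.16, limma adjusted p = 0.238; 0.24, limma adjusted p = 0.306), while Il4ra, the receptor chain, fell in culture (-1.14 ± 0.14, limma adjusted p = 0.000211) and rose in marrow by 1.07 ± 0.18 (limma adjusted p = 0.00344), a difference of -2.21 ± 0.22 (limma interaction, adjusted p = 1.51e-05). Nfatc3 had -0.56 ± 0.13 in culture (limma adjusted p = 0.00801, but -0.20 and 0.296 with libraries centred) and had -0.12 in marrow (limma adjusted p = 0.614).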

How the data were processed

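RNA of 14 libraries was sequenced, and each experiment had its own table of 9474 genes. The authors deposited log2 values per gene and library. Per the submitters' processing notes, TopHat2 (2.0.13), bcl2fastq and build mm10 were used; for the counter, the use of strand and the normalization, nothing is given in the sources used here. Each deposited log2 value was the log2 of a whole read number plus 0.5, shifted by a gene and a library constant; solving for these gave reads for 9407 genes (99.3%), all 7 members among them, within 0.00041 on the log2 scale. The gene constants do not follow exon length, so levels between genes used reads per kb of exon (GENCODE vM21). limma (3.58.1, R 4.3.3, variance trend, no covariate) was fitted to the deposited log2 values within each table, and an interaction over all 14 libraries gave the difference of responses; one set of gene constants solved both tables, so that they share a scale. P-values were two-sided and Benjamini-Hochberg adjusted over 9474 genes, and the scripts were tested on simulated data. Counting intervals are exact, at 95%.

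Members and lists were chosen with earlier results of these data known. Named are the members, in each list and comparison the 2 called genes with the smallest p, 25 further genes of the pathway (19 measured), and the 3 genes most correlated with each member. Alternatives were centring, quantile normalization, no variance trend, a filter at the 25th percentile of level, voom on recovered reads, a replicate block, separate fits with z, and leaving out libraries. The promoters of 4 members were not analysed here, and 1 gene named by these rules is not reported here.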

Additional observations from a re-analysis of the deposited data

Results flagged for a closer look

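The IL4 response differed between culture and marrow for 5 genes by the limma interaction over 14 libraries, as culture minus marrow on the log2 scale: Itgb3 by 2.68, Ctsk by 4.72, Acp5 by 4.59, Nfatc1 by -1.46 and Car2 by 7.77. For Car2 all 4 culture IL4 libraries lay above their controls and all 3 marrow IL4 libraries below theirs. For Ctsk the marrow side rested on 2 reads in controls and 1 with IL4.

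Culture IL4 library 1 was a low sample for Tnfrsf11a: its gap to the next library was 0.833 of the range of its group. Of 14 groups of 4 libraries examined it was the only one past Dixon's limit, and chance puts about 1 in 20 groups past it.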

How the results depend on the processing

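Every alternative run left all 7 genes called in culture, in the direction reported, and Itgb3, Atp6v0d2 and Car2 called in marrow. Over the alternatives the culture values ran from 4.24 to 4.70 for Itgb3, 4.22 to 4.97 for Ctsk, 3.93 to 4.73 for Acp5, 3.82 to 4.72 for Car2, 2.76 to 3.82 for Atp6v0d2, -1.98 to -1.21 for Nfatc1 and -1.44 to -0.97 for Tnfrsf11a. The marrow values ran from 1.52 to 1.80 for Itgb3, 4.80 to 5.81 for Atp6v0d2 and -3.86 to -3.31 for Car2. Of the 4 marrow genes that were not called, 3 changed sign when single libraries were left out, from -0.83 to 0.60 for Ctsk, -0.68 to 0.20 for Acp5 and -1.43 to 0.22 for Tnfrsf11a, while Nfatc1 ran from -0.21 to -0.05. Genes called in marrow, 1721 in all, ran from 1104 to 1460 when a library was left out, with 1147 without control library 2 and 1104 without control library 3. The difference of responses of Tnfrsf11a ran from -1.55 (called, without marrow IL4 library 2) to 0.10, and separate fits with z called that of Atp6v0d2 (-2.06, adjusted p = 0.0342, against 0.0342 to 0.437 over the alternatives). The filter on low values left no value for Car2 in culture, for Ctsk, Tnfrsf11a and Atp6v0d2 in marrow, and for Ctsk in the difference.

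Same-numbered libraries deviated together with r of -0.045 to 0.022 in culture, where other pairs had -0.034 to 0.033. In marrow they had 0.026 to 0.059, all above the other pairs at -0.044 to 0.012. Values this small, at this depth, cannot settle whether the numbers pair samples. The replicate block gave 710 higher and 2737 lower genes in culture and 672 and 1092 in marrow, and changed no call of the 7 genes. Depth limits Ctsk and Tnfrsf11a in marrow, Atp6v0d2 in marrow controls and Car2 in control cultures, at 0 to 7 reads.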

Other observations

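The genes whose pattern over the 14 libraries was most like that of each osteoclast gene are given as a description, after centring each gene within its experiment; these points share libraries, and IL4 moves many genes at once. Itgb3 was most like Pdcd1lg2 (Pearson r = 0.992), the gene of a ligand of PD-1, followed by Tuba8 (0.988) and Chil3 (0.985), a secreted chitinase-like protein of IL4-exposed macrophages. Pdcd1lg2 rose by 7.64 in culture and by 2.22 in marrow. Atp6v0d2 was most like Vat1 (0.971), Pparg (0.962), a nuclear receptor that IL4 is known to induce, and Hk3 (0.96), a hexokinase. Pparg rose by 1.59 in culture and by 4.19 in marrow, and Atp6v0d2 also had its larger value in marrow. For Atp6v0d2 that marrow value rested on 1 control read, and the difference of its responses did not pass (limma interaction, adjusted p = 0.11). Car2 was most like Klf4 (0.993), a transcription factor gene with 1.46 in culture and -1.45 in marrow, then Acss1 (0.95) and Capg (0.938).

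Ctsk was most like Mink1 (0.957), Elmo2 (0.948) and Gbp2 (0.946), and Acp5 most like Bcap31 (0.959), Fam43a (0.957) and Abcc5 (0.956). Nfatc1 was most like Prex1 (0.957), Hmga2-ps1 (0.955) and Shcbp1 (0.953), and Tnfrsf11a most like Tlr13 (0.907), Cd99l2 (0.892) and Wdr11 (0.888). Among the 7 genes Ctsk and Acp5 had r = 0.891, Itgb3 and Acp5 0.872, and Itgb3 and Ctsk 0.86, Nfatc1 ran against Itgb3 (-0.86) and Acp5 (-0.856), and Atp6v0d2 and Car2 had -0.046.

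Other large rises in culture among the matrix-degrading genes, named after their values were seen, were those of the metalloproteinases Mmp12 (4.73 ± 0.61, limma adjusted p = 0.000276) and Mmp13 (4.25 ± 0.64, limma adjusted p = 0.000737). Mmp12 ran from 226 to 2957 reads over the control cultures and from 10999 to 27888 over the IL4 cultures; library 4 was the highest control and the lowest IL4 library. In marrow Mmp12 had 0 or 1 read in controls and 0 to 8 with IL4.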
